A study of Mus musculus with 2 samples.

Results

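The cells called G2/M medullary transit-amplifying cells here were chosen as dividing cells among sorted thymic epithelial cells (TECs) of the mouse. The name describes the choice, since the rule did not separate S phase from G2/M and some chosen cells carried thymocyte RNA. The control library held 186 chosen cells and the irradiated library 482. They were 668 of 8305 cells kept after quality filtering, and 12104 barcodes were deposited in all, with 58185309 control and 82201657 irradiated UMIs (unique molecular identifiers, each standing for one captured transcript). Members were chosen by their own counts: a cell was kept with more than 2000 and fewer than 7500 detected genes and under 15% mitochondrial UMIs. It was then selected on at least 4 UMIs of Mki67 and Top2a together per 10000 UMIs of the cell, with under 15 of Psmb11 and Prss16, genes of the cortical proteasome and protease, and under 5 of Avil and Trpm5, genes of tuft cells. Mki67 encodes the proliferation antigen Ki-67, a chromosome surface protein, and Top2a the topoisomerase that untangles replicated chromosomes. Levels of these 6 genes therefore describe the choice and are not results.

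TECs of female C57BL/6 mice were measured by droplet single-cell RNA sequencing, with 1 library per condition, each made from the pooled cells of 3 mice. The irradiated mice received a sublethal dose of γ-rays and were taken 15 days later, and the control mice were age-matched and not irradiated. Per the labels the animals were 9 weeks old, whereas the protocol in the labels gives 4 weeks. After digestion of the thymus with collagenase, the sort took cells with EpCAM and without CD45 or TER119. Such a gate should hold epithelial cells and remove blood cells. The labels and the names of the deposited files assign the conditions to the 2 libraries in opposite ways. Here the file names were followed, since the numbers of kept cells they give, 3233 control cells and, with the filter on rarely detected genes, 5070 irradiated cells, are those of the study's filtering. Every difference between control and irradiated cells below changes sign if the labels are right. Because each condition was 1 library, the design gives no test between conditions. The intervals below are 95% intervals for counting error alone and do not cover the spread between mice or between libraries.

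The medulla of the thymus displays self-antigens to developing T cells. Medullary TECs (mTECs) that express the autoimmune regulator Aire switch on many tissue-restricted genes, and they arise from dividing precursors that are called transit-amplifying because each division enlarges the pool before maturation. In a dividing cell, genes for DNA synthesis are expressed in S phase, and genes for chromosome condensation, the spindle and its checkpoint accumulate through G2 until mitosis. Cyclin B with the kinase Cdk1 starts mitosis, and the anaphase-promoting complex with Cdc20 ends it by marking cyclin B for destruction.

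Several promoters of the late cell cycle share short letters that let this program be seen in the sequence, so a few are shown before the values. The program is known for a cell cycle homology region, written here as TTTGAA, and for CCAAT boxes bound by the factor NF-Y. The 150 bases just before the annotated start are given 5′ to 3′ on the strand of the gene, from RefSeq on GRCm38.p6, with matches to TTTGAA or CCAAT on either strand in capitals. Matches on the other strand read TTCAAA or ATTGG, and a match of each kind can share 1 base. The 5 G2/M genes below are Mki67 (chr7:135716380-135716529, minus strand), Top2a (chr11:99024190-99024339, minus strand), Kif11 (chr19:37376232-37376381, plus strand), Ccnb2 (chr9:70421555-70421704, minus strand) and Cenpf (chr1:189688087-189688236, minus strand), none of which overlaps an annotated exon. Aire (chr10:78043611-78043760, minus strand) is shown for contrast, because it is expressed in the same cells and is not a cell cycle gene, and its stretch lies within the gene Dnmt3l on the other strand.
Mki67: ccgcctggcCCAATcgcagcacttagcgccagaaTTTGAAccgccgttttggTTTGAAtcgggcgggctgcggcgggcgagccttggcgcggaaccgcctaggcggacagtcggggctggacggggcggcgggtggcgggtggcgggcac
Top2a: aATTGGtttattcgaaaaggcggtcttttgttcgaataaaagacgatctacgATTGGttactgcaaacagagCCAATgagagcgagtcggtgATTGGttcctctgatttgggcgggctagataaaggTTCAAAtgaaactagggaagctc
Kif11: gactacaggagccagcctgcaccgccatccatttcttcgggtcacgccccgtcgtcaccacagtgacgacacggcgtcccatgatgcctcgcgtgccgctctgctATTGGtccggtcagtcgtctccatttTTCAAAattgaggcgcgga
Ccnb2: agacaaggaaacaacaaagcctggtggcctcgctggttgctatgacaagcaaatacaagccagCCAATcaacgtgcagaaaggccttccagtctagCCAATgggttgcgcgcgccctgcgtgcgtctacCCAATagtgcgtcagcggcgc
Cenpf: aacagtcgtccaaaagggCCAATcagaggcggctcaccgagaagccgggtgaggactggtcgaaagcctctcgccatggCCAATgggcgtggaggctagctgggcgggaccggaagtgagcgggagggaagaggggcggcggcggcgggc
Aire: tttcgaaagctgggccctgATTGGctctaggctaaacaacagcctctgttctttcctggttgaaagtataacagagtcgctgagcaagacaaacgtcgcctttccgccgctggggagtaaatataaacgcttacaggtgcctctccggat

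In these stretches Mki67 holds TTTGAA 116 and 98 bases before the start, Kif11 holds it 19 bases before the start next to a CCAAT box at 45, and Ccnb2 holds 3 CCAAT boxes at 87, 54 and 21. The Aire stretch holds 1 CCAAT box and no TTTGAA. The stretches of Ccnb2 and Cenpf hold no TTTGAA either, and Cenpf holds CCAAT boxes at 132 and 71. Both genes do hold TTTGAA outside the printed stretch, within the windows of 300 bases counted below. In Ccnb2 it lies 167 bases before the start and again just past the start, and in Cenpf just past the start. The promoters shown are examples that hold matches. The same stretch of Birc5, which also overlaps no annotated exon, holds neither TTTGAA nor CCAAT, nor does that of Nusap1. Of the 52 genes of a G2/M list that leaves out Mki67 and Top2a, 45 matched 1 or more promoter windows of 300 bases, from 250 before to 50 after the start. TTTGAA on either strand was in 31 of them (68.9%), CCAAT in 34 (75.6%) and both in 24 (53.3%). Among all 27025 genes with a window the shares were 20.2%, 41.1% and 7.97%, and among the 8084 matched genes counted in members they were 14.6%, 43.3% and 6.05%. Of the 43 genes of an S-phase list, 31 matched and 6 of these held TTTGAA (19.4%), whereas 22 held CCAAT (71%). TTTGAA was thus common in the G2/M list and near the share of all genes in the S-phase list, while CCAAT was common in both. The letters GGCGGGAA, a form of the E2F site of S-phase promoters, were in the windows of 7 S-phase genes (22.6%) and 1 G2/M gene (2.22%), against 2.52% of all genes and 5.15% of genes counted in members. A match is a description of the letters and not of binding.

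Members took a larger share of the irradiated library than of the control library. They were 5.753% of kept control cells (exact binomial interval 4.975 to 6.612%) and 9.503% of kept irradiated cells (8.71 to 10.34%), a log2 ratio of 0.72 with a range of 0.40 to 1.06 from the opposite ends of the 2 intervals. Among medullary cells alone, kept cells that met the limits on cortical and tuft genes, the shares were 6.337% of 2935 and 10.6% of 4548. Replicating cells, medullary cells with under 4 UMIs of Mki67 and Top2a per 10000 but at least 4 of the replication genes Mcm3, Mcm5, Mcm6, Gins2, Tyms and Rrm2, made up 3.031% of the control library (98 cells) and 4.535% of the irradiated one (230 cells), with a log2 ratio of 0.58 (0.11 to 1.06). Nondividing Aire-high cells, with at least 5 Aire UMIs per 10000, under 1 of Mki67 and Top2a and under 2 of the replication genes, were 564 (17.45%) and 898 (17.71%), a log2 ratio of 0.02 (-0.17 to 0.22). Both dividing populations thus had larger shares in the irradiated library, and the nondividing Aire-high cells had nearly equal ones. No barcode sequence was shared between members of the libraries, and 17 were shared among all barcodes.

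The lower limit on dividing cells fell within a continuous range. The lowest members held 4.011 and 4.003 UMIs of Mki67 and Top2a per 10000 in the control and irradiated libraries, and the highest cells just below the limit held 3.912 and 3.996. Between 4 and 5 there were 23 control and 53 irradiated members, and between 3 and 4 there were 27 and 61 cells that were not members. The median member was at 12.17 and 12.07 and the highest at 40.31 and 46.42. A further 4 control and 17 irradiated dividing cells were left out by the cortical genes and none by the tuft genes.

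Members were deep cells. They held 5544828 control and 11771035 irradiated UMIs in all, with a median of 29605.5 per control cell (7479 to 58293) and 23791.5 per irradiated cell (4680 to 53763). All other kept cells had medians of 13068 and 12335, replicating cells 21616.5 and 17779.5, and nondividing Aire-high cells 19245.5 and 16057.5. Median mitochondrial shares of members were 5.3% and 5.79%. Control members were thus deeper than irradiated members, and all levels below are sums over cells divided by their total, per 10000 UMIs.

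Detection of the other markers of the label was measured after thinning each cell to 10000 UMIs, which left out 6 control and 29 irradiated members. Cdk1, the kinase that drives entry into mitosis, was detected in 89.4% of control and 91.4% of irradiated members, and Cenpf, a kinetochore protein, in 70.6% and 76.6%. Aire was detected in 81.7% of control members (75.2 to 87%) and 71.5% of irradiated members (67.1 to 75.6%), and without thinning in 86% and 75.1%. In tuft-marker cells, which should lack Aire and had median depths of 13713 and 10759 UMIs, the thinned shares were 11.1% (6.21 to 17.9%) and 23.3% (15.1 to 33.4%). The share of cells with Aire was thus above that of tuft-marker cells in both libraries. Cdk1 and Cenpf were found in most members. They belong to the same program as Mki67 and Top2a, so their detection follows from the choice of cells and does not test the label.

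The rule did not separate S phase from G2/M. Summed over the G2/M list, per-cell levels of members had a median of 82 UMIs per 10000 in the control library (5.12 to 334) and 92.5 in the irradiated library (10.1 to 352), and over the S-phase list the medians were 27 and 24.3. In 142 of 186 control members (76.34%, 69.57 to 82.25%) and 393 of 482 irradiated members (81.54%, 77.78 to 84.9%) the G2/M list held more UMIs than the S-phase list. The lists hold 52 and 43 genes, so the comparison is no phase call and does not settle which members were in G2/M. Among replicating cells the share was 21.43% (control) and 18.26% (irradiated). It was 89.01% and 92% among nondividing Aire-high cells, above the members, although both sums were low there.

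**Figure D1:**
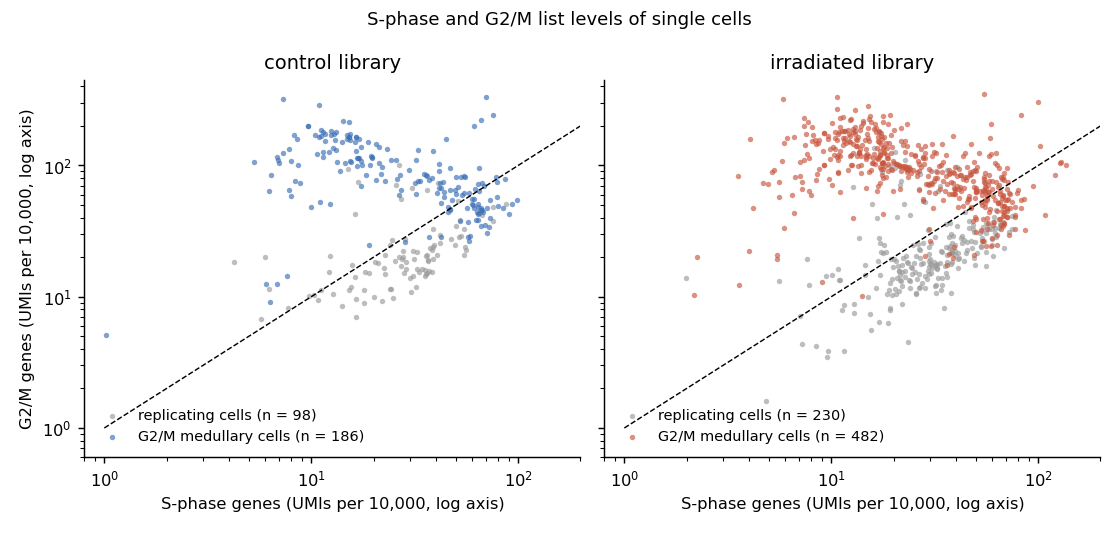
Each point is a cell, with its summed S-phase genes on the x axis and its summed G2/M genes without Mki67 and Top2a on the y axis, both in UMIs per 10000 UMIs of the cell on log axes, in 1 panel per library with a dashed line where both are equal. Members lie mostly above replicating cells, with medians of 82 (control) and 92.5 (irradiated) on the y axis, and trail down into the replicating cells at the lower end.

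Members were compared with replicating cells of the same library, and a gene was counted as higher or lower when its level differed at least 2-fold in the same direction in both libraries, among 7846 genes with at least 100 UMIs. By this size rule 199 genes (2.54%) were higher and 60 (0.765%) lower in members. Since Mki67 and Top2a belong to the same program, these counts, and those by role below, describe what came with the choice of cells and support nothing else. In the G2/M list 44 of 50 counted genes were higher, with a median log2 difference of 2.29 in the control and 2.45 in the irradiated library, against medians over all genes of 0.02 and 0.04.

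Among the regulators that start mitosis, 12 of 16 mitotic kinases and cyclins were higher in members. Cdk1 stood at 4.96 UMIs per 10000 in control members and 0.833 in control replicating cells, and at 5.78 and 1.07 in the irradiated library. Ccnb1, the cyclin B1 that activates Cdk1, stood at 1.51 and 1.86 in members against 0.141 and 0.161 in replicating cells. Plk1, a kinase of spindle assembly and mitotic exit, was at 0.977 and 1.08, and Aurka, the kinase of the spindle poles, was at 0.721 and 1.01. Plk1 and Aurka were among the 15 genes furthest above replicating cells in both libraries.

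The machinery that holds and moves chromosomes was higher as well. All 4 genes of the chromosomal passenger complex, which corrects faulty attachments, were higher than in replicating cells: Aurkb, its kinase, was at 0.956 in control and 1.05 in irradiated members, Birc5, the survivin subunit, at 3.02 and 3.5, Cdca8, the borealin subunit, at 2.35 and 2.57, and Incenp, its scaffold, at 1.18 and 1.28. All 15 kinetochore and checkpoint genes were higher, among them Bub1, a checkpoint kinase, at 0.711 and 0.709 against 0.104 and 0.135. All 21 counted spindle motors and microtubule factors were higher, among them Kif11, the motor that separates the spindle poles, at 1.3 and 1.34 against 0.0424 and 0.114, and Prc1, which bundles the microtubules of the central spindle, at 1.95 and 2.57. Of 15 condensin and chromatin genes 8 were higher, among them Smc4, a condensin subunit, at 2.87 and 2.79 against 0.772 and 0.729.

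Genes of mitotic exit were led by Ube2c, the ubiquitin-conjugating enzyme of the anaphase-promoting complex. It was at 6.01 against 0.193 in the control and 7.43 against 0.317 in the irradiated library, log2 differences of 4.94 and 4.54. By the smaller difference of the 2 libraries it led all 7846 genes. Cdc20, the activator of the complex, was at 1.88 and 2.15 in members. Pttg1, the securin that the complex destroys, was at 0.593 and 0.785 and was not among the genes counted as higher. In all, 6 of 9 genes of this group were higher. Hist1h2ae and Hist1h2ap were also among the 15 leading genes, but histone genes are near-identical copies and their counts are uncertain. The thymocyte markers Cd8b1, at 0.206 and 0.213 against 0.00942 and 0.00473, and Trbc1 were among the 15 as well, and 113 of the control Cd8b1 UMIs lay in the 7 members described below that carried thymocyte RNA, against 1 in all others.

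Replication genes set the choice of the replicating cells, so their levels there are given as a description. Mcm3, Mcm5, Mcm6 and Gins2 of the helicase list and Tyms and Rrm2 were in that rule. None of 20 genes of the replicative helicase and fork differed 2-fold, with median log2 differences of -0.18 and -0.29. In the S-phase list 2 of 43 genes were higher in members, Tyms, a thymidylate synthase, and E2f8, a late repressor of E2F targets. Another 2 were lower, Ung, which removes uracil from DNA, at 0.359 and 0.272 against 0.862 and 0.89, and Cdca7, a chromatin factor, at 0.271 and 0.24 against 0.593 and 0.594. The S-phase sum was 34.8 (control) and 30.8 (irradiated) in members and 31.8 and 32.7 in replicating cells, and the G2/M sum was 98.7 and 106 against 26.4 and 26.7.

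Inhibitors of the kinases that drive the cycle also differed. Of 7 CDK inhibitors 4 were higher in members than in replicating cells, against 2.54% of all genes. All 4 were of the family that binds Cdk4 and Cdk6: Cdkn2a, Cdkn2b, Cdkn2c and Cdkn2d. Cdkn2d was at 0.451 and 0.528 against 0.0753 and 0.0615, and Cdkn2c at 1.26 and 1.33 against 0.523 and 0.509. H2afx, the histone variant that is phosphorylated at DNA breaks, was the 1 gene of 26 in a list of break signalling and repair that was higher. It was at 4.99 and 5.49 against 0.777 and 1.11. Over all genes the share counted higher was 2.54%, and H2afx is also among the condensin and chromatin genes counted above. The count is thus not read as a result about repair.

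The genes lower in members than in replicating cells were led by Myl9, Tagln and Igfbp5. Myl9 and Tagln encode contractile proteins, with log2 differences of -2.20 and -2.25 in the control library and -2.11 and -2.04 in the irradiated library. Igfbp5, a binding protein of insulin-like growth factors, was at 1.22 and 1.18 against 6.36 and 4.39. Ccl21a, the chemokine that draws thymocytes into the medulla, was at 5.99 and 8.65 against 22.9 and 29. Markers of fibroblasts and endothelium moved the same way, at 0.53 and 0.563 in all in members against 1.82 and 1.11, with Dcn, the matrix proteoglycan decorin and the most abundant of them, at 0.256 and 0.41 against 1.67 and 0.845. Their part in these differences was not tested. The paralogs of Ccl21a are near-identical, so its counts may hold reads of other copies. Leaving out the members above the 95th percentile of UMIs of all kept cells, which left 114 and 346, changed the count of higher genes to 126 and that of lower genes to 9.

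Among themselves, members were ordered by the G2/M list and split into 3 ranges of equal cell number in each library. Genes outside the list moved with the order. Ccnb1 was at 0.191, 0.862 and 3.26 UMIs per 10000 from the lowest to the highest range of control members and at 0.211, 1.2 and 3.81 of irradiated members, and Plk1 was at 0.0679, 0.663 and 2.04 and at 0.132, 0.73 and 2.16. The S-phase list ran the other way, at 53.3, 34.3 and 20 in the control and 50.1, 29 and 17.2 in the irradiated library. Pcna, the sliding clamp of the replication fork, was at 4.64, 2.98 and 1.03 and at 4.2, 1.97 and 0.775, and Ccne2, the cyclin E2 of S-phase entry, at 0.617, 0.199 and 0.0153 and at 0.538, 0.113 and 0.014. The ranges are thus ordered from cells rich in S-phase transcripts to cells rich in mitotic ones, as far as sums over a pool can show.

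Inhibitors split along the same order. Cdkn1a, the p21 inhibitor that p53 induces, was highest in the lowest range, at 0.821, 0.449 and 0.183 in the control and 1.38, 1.14 and 0.715 in the irradiated library. Cdkn2d ran with the mitotic genes, at 0.228, 0.357 and 0.728 and at 0.278, 0.482 and 0.771. Aire was nearly level across the ranges of control members, at 5.95, 5.67 and 6.23, and was higher toward the mitotic end of irradiated members, at 4.31, 5.27 and 6.65. Fezf2, another regulator of tissue-restricted antigens, was at 3.61, 4.06 and 4.62 and at 3.05, 3.96 and 4.27. Median depths of the ranges were 26934, 32007.5 and 34191 UMIs and 20448, 25740 and 26182.5, and thymocyte markers summed to 0.599, 0.199 and 13 and to 2.28, 1.66 and 7.4. The part of depth and of thymocyte RNA in these orders was not tested.

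**Figure D2:**
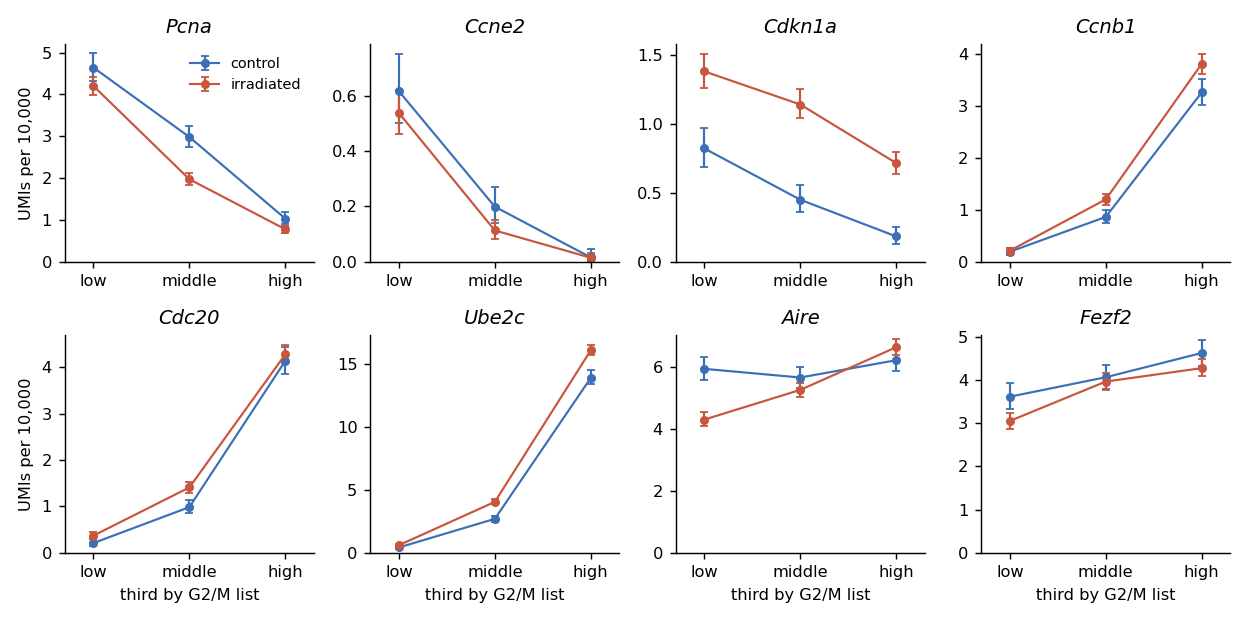
Levels of 8 genes in UMIs per 10000 in members split into 3 ranges of equal cell number by their G2/M list, with 1 line per library and bars for 95% Poisson intervals. Pcna, Ccne2 and Cdkn1a are highest in the lowest range, Ccnb1 in the highest, as are Cdc20 and Ube2c, which belong to the list that set the ranges, and Aire is level in control members and higher toward the highest range in irradiated members.

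Some members carried the RNA of thymocytes. At 5 or more UMIs of 19 thymocyte markers per 10000 there were 7 control members (3.763%, 1.526 to 7.6%) and 18 irradiated members (3.734%, 2.228 to 5.838%), and they held 94.65% and 94.83% of the thymocyte UMIs of all members. In the 7 control cells Trbc2, the constant region of the T cell receptor β chain and the most abundant marker of the list, was at 38.8 against 0.0711 in the other 179, and Ptprc, which encodes CD45, had 85 UMIs against 0. Their Aire was at 0.201 against 6.16 and their Epcam, the epithelial surface protein used in the sort, at 2.31 against 8.75. In the 18 irradiated cells Aire was at 1.07 against 5.59 and Epcam at 2.78 against 10. These cells thus combined thymocyte transcripts with low Aire and Epcam, although the sort was set to remove CD45+ cells. The same limit found 2 of 98 control replicating cells and 42 of 564 control Aire-high cells. None of the 19 markers was at 0 UMIs over all members of a library, and the thymocyte sum was 4.85 in control and 3.93 in irradiated members. Without these cells Aire in members was 6.16 and 5.59, and the G2/M sum was 95.1 and 105.

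A second split among members lay along Ccl21a, a gene noticed after the values were seen. At 10 or more Ccl21a UMIs per 10000 there were 35 control members (18.8%, 13.5 to 25.2%) and 119 irradiated members (24.7%, 20.9 to 28.8%). In these cells Aire was at 1.74 in the control and 0.912 in the irradiated library, against 6.64 and 6.56 in the rest. Krt5, a keratin of basal epithelium, was at 14.5 and 18 against 3.31 and 4.92, and Trp63, the regulator of basal epithelial identity, at 1.66 and 1.5 against 0.239 and 0.3. Hdc, the histidine decarboxylase of maturing Aire+ mTECs, was at 0.438 and 0.425 against 2.23 and 2.14. Members high in Ccl21a thus held more Krt5 and Trp63 and less Aire and Hdc in both libraries.

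The split was compared with the cell cycle lists. The S-phase sum was 42 and 37.1 in the Ccl21a-high members against 33.6 and 29.4 in the rest. Across the ranges of the G2/M list, Ccl21a was at 9.12, 4.56 and 4.83 in control and 12.6, 6.69 and 7.35 in irradiated members, highest in the range richest in S-phase transcripts. The G2/M sum was 105 and 98.4 in the Ccl21a-high members against 97.6 and 108 in the rest, with opposite directions in the 2 libraries, and Ccnb1 was at 1.66 and 1.54 against 1.49 and 1.93. Ccl11, the eotaxin chemokine, was nearly confined to them, at 1.61 and 5.81 against 0.0315 and 0.0439. Interferon response genes summed to 35.5 and 46.9 against 19.4 and 18.8. The Ccl21a-high members were shallower, with median UMIs per cell of 19091 and 16497 against 30774 and 26153, and their thymocyte markers summed to 0.309 and 2.4 against 5.59 and 4.28. In tuft-marker cells Ccl21a was detected in 36.5% and 51.1% of cells at 10000 UMIs, against 42.8% and 57.4% of members. Detection alone was thus near that of tuft-marker cells and is not read as expression, and the part of free RNA and of paralog reads was not tested.

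**Figure D3:**
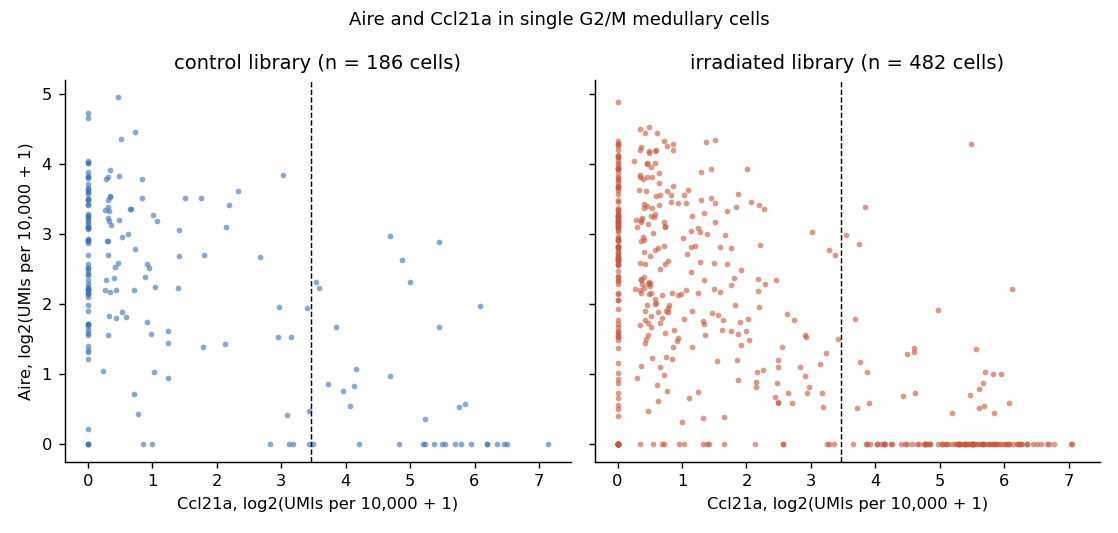
Each point is a member, with its Ccl21a level on the x axis and its Aire level on the y axis as log2 of the UMIs per 10000 plus 1, in 1 panel per library. To the right of the dashed line at 10 Ccl21a UMIs per 10000 lie 35 control and 119 irradiated members, whose pooled Aire levels were 1.74 and 0.912.

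Between irradiated and control members most genes differed little. Of 10179 genes with at least 100 UMIs in members of both libraries together, 81 (0.796%) were at least 2-fold higher and 46 (0.452%) at least 2-fold lower in irradiated members, and the median log2 ratio was 0.006. Without the members above the 95th percentile of UMIs the counts were 55 higher and 77 lower, so the balance between directions turned. Without the cell of each library that held the most UMIs of the gene, 75 of the 81 and 34 of the 46 still differed at least 2-fold. No gene of the S-phase and G2/M lists passed 2-fold. In the G2/M list 40 of 52 genes were above 0 with a median log2 ratio of 0.14, and in the S-phase list 4 of 43 were above 0 with a median of -0.17.

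The cycle lists thus leaned in opposite directions. The G2/M sum was 98.7 UMIs per 10000 in control and 106 in irradiated members (log2 ratio 0.10, range 0.08 to 0.12), and the S-phase sum 34.8 and 30.8 (-0.17, -0.21 to -0.14). By roles, 21 of 22 spindle genes, 9 of 9 genes of the anaphase-promoting complex and exit, and 10 of 16 mitotic kinases and cyclins were above 0, whereas 6 of 15 condensin and chromatin genes and 2 of 20 helicase and fork genes were. The condensin and chromatin sum was 95.8 and 97 (0.02), so not every role of the G2/M program leaned the same way. Aurka was at 0.721 and 1.01 (log2 ratio 0.48), Prc1 at 1.95 and 2.57 (0.40) and Ube2c at 6.01 and 7.43 (0.30). On the other side, Pcna was at 2.78 and 2.18 (-0.35) and Rrm2, the ribonucleotide reductase subunit that supplies nucleotides, at 2.17 and 1.81 (-0.26). In replicating cells, whose rule used S-phase genes, the S-phase sum was 31.8 and 32.7. The G2/M lean was not particular to members. That sum was at 13 and 14.1 in all other kept cells (0.12) and 11.2 and 11.9 in nondividing Aire-high cells (0.09). It was at 26.4 and 26.7 in replicating cells (0.02) and 14 and 13.5 in tuft-marker cells (-0.05). The S-phase sum of all other kept cells was 6.75 and 7.39 (0.13).

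Cdkn1a was the p53 target with the largest ratio. It had 257 UMIs in 67 of 186 control members and 1242 UMIs in 191 of 482 irradiated members, levels of 0.463 and 1.06 and a log2 ratio of 1.18 (0.93 to 1.45). The same direction was found in replicating cells, at 0.433 and 0.781 (0.84), and in nondividing Aire-high cells, at 1.21 and 2.9 (1.26). Phlda3, a p53-induced inhibitor of Akt signalling, was at 0.658 and 1.12 (0.76) and Trp53inp1, a p53-induced stress protein, at 0.42 and 0.588 (0.48). Mdm2, the ligase that degrades p53, was at 0.68 and 0.763, and Fas, a death receptor, was lower, at 1.06 and 0.782 (-0.44). Over the list 16 of 28 counted p53 targets were above 0 with a median log2 ratio of 0.07, and Cdkn1a alone passed 2-fold. The list summed to 19.5 and 22 (0.18, 0.13 to 0.22), so the sum was higher while the median gene was close to that of all genes. It was also higher in replicating cells, at 20.9 and 23.2 (0.15), and in nondividing Aire-high cells, at 22.9 and 28.5 (0.31). In all other kept cells the p53 sum was level, at 28.8 and 28.8, and in tuft-marker cells lower, at 41.1 and 37.9 (-0.12).

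The other inhibitors leaned both ways, and none of them passed 2-fold. Of 7 CDK inhibitors 3 were above 0, Cdkn1a, Cdkn2c and Cdkn2d. The median log2 ratio of the 7 was -0.06, although their sum was 3.65 in control and 4.28 in irradiated members. That sum was level in all other kept cells, at 5.03 and 5, and lower in tuft-marker cells, at 9.16 and 8.04. It was 1.92 and 2.14 in replicating cells and 4.14 and 6.26 in nondividing Aire-high cells. Ccnd1, the cyclin D1 of G1 phase, was at 1.55 and 2.13 (0.46), while Ccne2 was at 0.256 and 0.2 and Myc, a growth regulator, at 0.583 and 0.476 (-0.29). Genes of DNA break signalling and repair were level, with 15 of 33 above 0 and sums of 16.6 and 16.9.

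Immediate early genes were lower in irradiated members. All 16 counted stress and immediate early genes were below 0, with a median log2 ratio of -0.77 against 0.006 over all genes. Of them 5 were at least 2-fold lower, against 0.452% of all genes: Fos, Fosb, Atf3, Ier3 and Dusp1. Fos, a subunit of the AP-1 factor, was at 4.82 in control and 1.6 in irradiated members (-1.59, -1.71 to -1.47) and was found in 149 and 243 cells. Atf3, a stress transcription factor, was at 1.2 and 0.56 (-1.10), and Dusp1, a phosphatase of MAP kinases, at 1.47 and 0.687 (-1.09). The list summed to 108 and 71.4 in members (-0.59), to 120 and 86.2 in replicating cells (-0.48) and to 82.4 and 68.3 in nondividing Aire-high cells (-0.27). It was also lower in all other kept cells, at 133 and 82.1 (-0.69), and in tuft-marker cells, at 133 and 99.5 (-0.42), so it was lower in the irradiated library in all 5 populations compared.

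Some immature mTEC markers were higher in irradiated members. In a list of mTEC-low and progenitor markers 14 of 18 counted genes were above 0 (median log2 ratio 0.24) and 4 were at least 2-fold higher, Ly6a, Ccl11, Krt15 and Plet1, against 0.796% of all genes and a median of 0.006. The list summed to 55.6 and 68.6 in members (0.30) and leaned as much in replicating cells, at 92.9 and 115 (0.31). Ly6a, which encodes the surface protein Sca-1, was at 1.23 and 2.79 (1.18). Ccl11 was at 0.252 and 1.13 (2.16), with UMIs in 33 of 186 control and 92 of 482 irradiated members. Krt15, a keratin of basal progenitors, was found in 3 and 22 of these members, and Plet1, a progenitor surface marker, in 9 and 36. The top cell held 65.2% of control and 19.2% of irradiated UMIs of Krt15. It held 30.8% and 21.1% of those of Plet1, and 30.7% and 16.9% of those of Ccl11. Krt5 was at 4.87 and 7.38 (0.60), Krt14, its partner keratin, at 6.18 and 9.02 (0.55) and Ccl21a at 5.99 and 8.65 (0.53). Within the Ccl21a-high members Ly6a was at 3.95 and 10.5 and Ccl11 at 1.61 and 5.81, and in the rest Ly6a was at 0.782 and 1.01 and Ccl11 at 0.0315 and 0.0439. The larger part of both differences thus lay in the Ccl21a-high members.

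Interferon response genes were compared in the same way. In members 15 of 18 counted genes were above 0 with a median log2 ratio of 0.72, against 0.006 over all genes. Of the 18, 2 were at least 2-fold higher, against 0.796% of all genes: Ifit2 and Ifit3, antiviral RNA-binding proteins. Ifit3 was at 0.204 and 0.474 (1.21) and Isg15, a ubiquitin-like modifier, at 0.476 and 0.856 (0.84). The sum, dominated by Cxcl10, a chemokine at 11.3 and 10.1, was 21.6 and 24.1 (0.15). Ifit3 was at 0.721 and 2.27 in Ccl21a-high members and at 0.12 and 0.0575 in the rest, and the interferon sum was 35.5 and 46.9 in the former and 19.4 and 18.8 in the latter. Outside the Ccl21a-high members neither Ifit3 nor the sum was higher in the irradiated library.

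Aire and the maturation genes were close between the libraries. Aire had 3299 UMIs in control and 6467 in irradiated members, at 5.95 and 5.49 (log2 ratio -0.12, -0.20 to -0.03). Among members with at least 8 UMIs of Mki67 and Top2a per 10000 it was at 5.45 and 5.77, and the ratio turned to 0.08 (-0.02 to 0.18). Of single cells, 26 control members (14%) and 120 irradiated members (24.9%) had no Aire UMI, and the median per-cell level was 4.02 and 2.74. Without the Ccl21a-high members Aire was at 6.64 and 6.56 (-0.02). Fezf2 was at 4.13 and 3.81 and Tnfrsf11a, the RANK receptor that drives mTEC maturation, at 1.03 and 1.15. None of 17 genes of Aire and medullary maturation and none of 10 MHC class II genes passed 2-fold.

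Some of the single genes with the largest ratios rested on few cells. Bpifa1, an airway secretory protein, had 5 control and 2448 irradiated UMIs (log2 ratio 7.71), of which 97.6% of the irradiated ones were in 1 cell, and without the top cell of each library 3 and 59 UMIs were left. Lefty2, a signalling inhibitor of the TGF-β family, had 227 and 14 UMIs (-5.06), with 99.6% of the control ones in 1 cell, and without the top cells its ratio changed sign to 1.58. Ccl5, a chemokine, had 170 UMIs in 42 control cells and 2290 in 115 irradiated cells (2.66, and 2.26 without the top cells, of which the irradiated one held 54.5%). Socs3, a feedback inhibitor of cytokine signalling, had 1306 and 995 UMIs (-1.48, and -1.44 without the top cells), and Cxcl1, a neutrophil chemokine, was at -2.20 and -1.75. Among genes with at least 200 UMIs, Klk14, Fabp3, Ly6g, Ccl11, Dmkn, Meig1, Bex4 and Gal completed the 10 highest ratios, from 1.47 to 3.38. Cxcl2, AA467197, Nos2, Fosb, Fos, Klk4 and Trbc1 completed the 10 lowest, from -1.98 to -1.46. Trbc1 has a near-identical copy in Trbc2 and is a thymocyte marker, so its count is uncertain. Bpifa1 and Lefty2 thus rested mainly on 1 cell. The top cell also held 93.8% of control and 62% of irradiated UMIs of Ly6g, 52.1% and 52.6% of Meig1, and 54.5% of the irradiated ones of Bex4. Without the top cells Ly6g was at 4.64, Bex4 at 1.02 and Nos2 at -1.03, against 2.57, 1.66 and -1.86 with them. Dmkn, an epidermal secreted protein, had UMIs in 17 control and 55 irradiated cells and was at 1.96, and at 2.01 without the top cells, and Socs3 had UMIs in 128 and 211 cells.

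**Figure D4:**
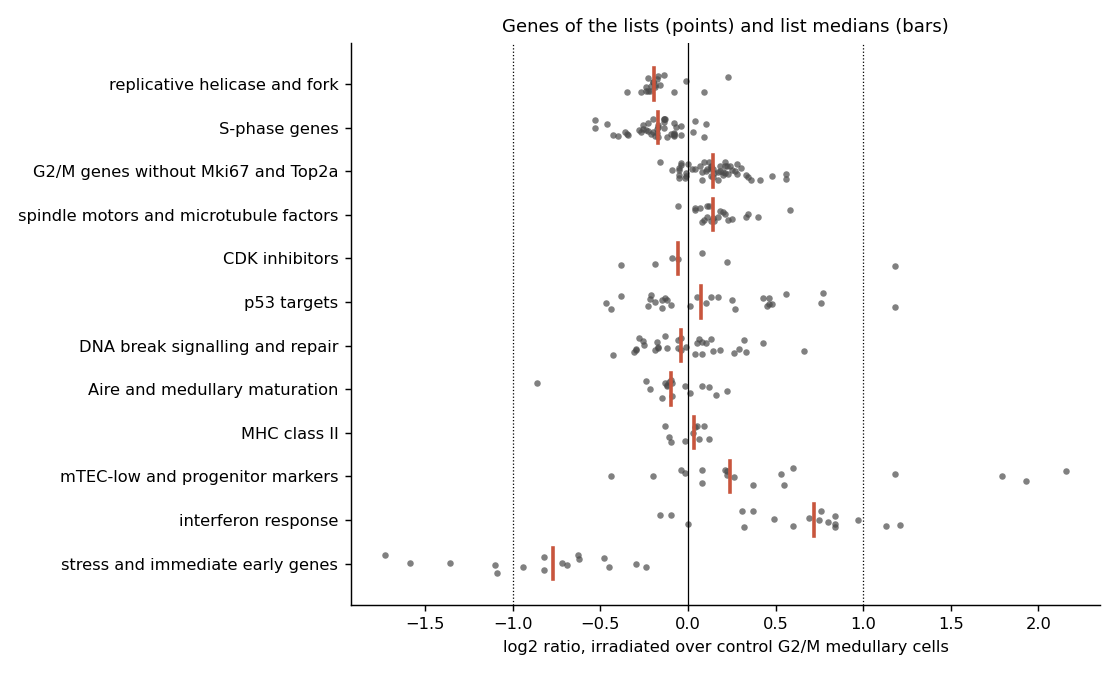
Each point is a gene of a list, placed by its log2 ratio of irradiated over control members on the x axis, with the lists on the y axis and the 2-fold limits marked. The stress and immediate early genes all lie below 0 with a median of -0.77, the G2/M genes lie mostly above 0 (median 0.14) and the S-phase genes mostly below (median -0.17).

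Against nondividing Aire-high cells the members differed far more widely. Of 11235 genes, 982 (8.74%) were at least 2-fold higher and 1813 (16.1%) at least 2-fold lower in members of both libraries. A gene nearly absent from members could be counted only through the Aire-high cells, so the lower count in part follows from the minimum of UMIs. The cycle genes were nearly all higher, 50 of 51 in the G2/M list with median log2 differences of 3.97 and 4.02 and 41 of 41 in the S-phase list with 3.12 and 3.09, which follows from the choice of cells. The leading gene was Ccna2, the cyclin A2 of S and G2 phase, with log2 differences of 7.41 and 7.83.

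Presentation genes and some maturation genes were at lower levels in members. MHC class II genes, which present peptides to CD4 T cells, summed to 287 in control and 282 in irradiated members against 569 and 559 in Aire-high cells. Of 10 such genes 6 were at least 2-fold lower, against 16.1% of all genes: H2-Aa, H2-Ab1, H2-Eb1, H2-DMb1, H2-Oa and H2-Ob. H2-Aa was at 46.1 and 47.9 against 105 and 107. Markers of myeloid and B cells, which also carry MHC class II, moved the same way, at 1.39 and 1.64 in all in members against 10.3 and 9.66, with Lyz2, the lysozyme of myeloid cells and the most abundant of the 12, at 1.16 and 1.33 against 7.52 and 6.51. Their part in the difference was not tested. Cd80, a costimulatory ligand, was at 0.269 and 0.252 against 0.808 and 0.854 and Hdc at 1.98 and 1.81 against 7.34 and 6.62. Aire itself was at 13.4 and 13.6 in the Aire-high cells, which were defined by it.

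Tissue-restricted genes that depend on Aire were then compared. The Aire-high cells were chosen for Aire, and many of these antigens had enough UMIs to be compared only through them, so single levels are given here without a count over the list. Csn2, the milk protein β-casein, was at 1.35 and 1.66 against 15.7 and 16.5, S100a8, a calcium-binding protein of neutrophils, at 1.1 and 0.635 against 9.25 and 8.41, and Reg3g, an antimicrobial lectin of the gut, at 1.16 and 0.914 against 6.69 and 6.49. Of the Reg3g UMIs of members, 53.8% of the control and 30.9% of the irradiated ones were in 1 cell. Wfdc18, a secreted protease inhibitor of the same list, ran the other way, at 13 and 14.1 against 3.65 and 4.22.

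Wfdc18 varied widely among the members. It was at 18.9, 14.9 and 6.38 across the G2/M ranges of control members and at 22.7, 9.9 and 11.3 across those of irradiated members, and it was at 30.4 and 34.7 in Ccl21a-high members against 10.2 and 9.37 in the rest. In replicating cells it was at 23.9 and 31.6. It was therefore higher in the Ccl21a-high members, which held less Aire, and it made up most of the antigen sum there, 31.5 and 36.1 against 15 and 13.9 in the rest.

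CDK inhibitors differed in both directions between the populations. Of 7 such genes, Cdkn2d was higher in members than in nondividing Aire-high cells, and Cdkn1a, Cdkn1c and Cdkn2b were lower. Over all genes 8.74% were higher and 16.1% lower. Cdkn1a was at 0.463 and 1.06 in members against 1.21 and 2.9, and Cdkn1c, the p57 inhibitor, at 0.112 and 0.0985 against 0.759 and 1.24. Krt5 lay between the populations, at 4.87 and 7.38 in members, 9.4 and 14 in replicating cells and 0.736 and 1.38 in Aire-high cells. Markers of tuft and cortical cells in members are given as a description only, since the rule limited genes of both. Tuft markers were at 0.489 and 0.555 UMIs per 10000 in all. Cortical TEC markers, a list that holds the rule gene Psmb11, summed to 7.86 and 8.91. Ccl25, a chemokine of cortical TECs, was at 0.177 and 0.361 in 45 and 147 members.

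**Figure D5:**
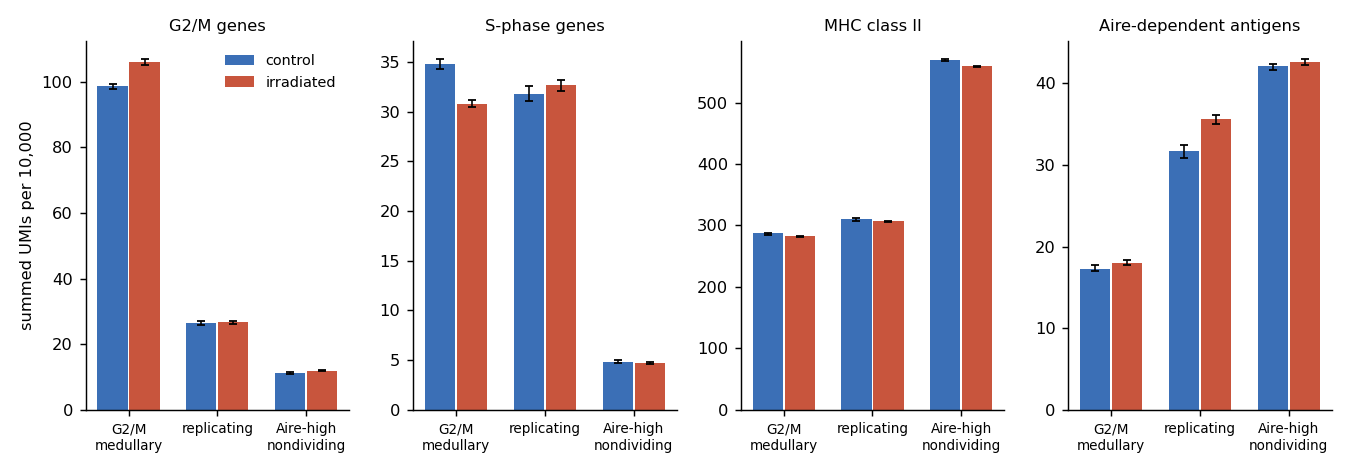
Summed levels of 4 gene lists in UMIs per 10000 UMIs, as bars from 0 for members, replicating cells and nondividing Aire-high cells in each library. Members hold the highest G2/M sums (98.7 control, 106 irradiated), S-phase sums close to those of replicating cells, and a lower MHC class II sum than Aire-high cells (287 against 569 in the control library).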

How the data were processed

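The authors deposited, for each library, a matrix of UMI counts per gene and barcode made with Cell Ranger (version 5.1 per the labels, 5.0.1 per the matrix header), without normalization and for barcodes called as cells. The sources differ on the chemistry. Counts were read with pandas 2.3.3 and scipy 1.17.1 (Python 3.11.15). Levels are UMIs of a gene summed over cells per 10000 UMIs, with exact Poisson 95% intervals, shares have exact Clopper-Pearson intervals, and log2 ratios use 0.5 added UMIs. UMI intervals and floors cover counting error only. With 1 library per condition no test was run. Genes needed 100 UMIs in the populations compared. All genes of the lists could be named, and otherwise the 10 highest and 10 lowest ratios between conditions with at least 200 UMIs, the 15 highest and lowest against another population, and the 15 most variable genes. A few genes singled out for their place in one library or cell were chosen after their values were seen. Doublets were not removed, and members are deep cells. The 2 populations compared were defined by rules on these counts. The script was tested on simulated data. Members, rules and gene lists were chosen with earlier results of these data known. Alternatives varied the rule, depth, minimum of UMIs, condition labels, and the members counted. Some items of the lists are not reported here.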

Additional observations from a re-analysis of the deposited data

Results flagged for a closer look

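Among barcodes left out for having 7500 or more detected genes, 10 of 32 in the control library (31.25%, exact interval 16.12 to 50.01%) and 7 of 21 in the irradiated library (33.33%, 14.59 to 56.97%) met the rest of the rule for G2/M medullary cells. These cells are in no comparison above. Among kept cells the shares were 5.753% and 9.503%.

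The summed markers of cortical TECs had a log2 ratio of irradiated over control of 0.18 in G2/M medullary cells and -0.20 in nondividing Aire-high cells. That list holds Psmb11, which the rule limited in members, so its sum there is in part set by the choice of cells. The summed markers of myeloid and B cells had ratios of 0.24 and -0.09 in the same populations. The directions were opposite, and the difference between the populations was not tested.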

How the results depend on the processing

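No paired analysis was possible because each condition has 1 library. Of 127 values under alternatives, 93 stayed the same, 26 moved and 8 changed direction. With conditions as in the labels, the log2 ratio of the share of members is -0.72, of Aire 0.12, of the G2/M sum -0.10, of the S-phase sum 0.17 and of the p53 targets -0.18, with 46 genes higher and 81 lower in irradiated members. The share kept its direction in all other alternatives. Aire was at 0.08 with at least 8 UMIs of Mki67 and Top2a (interval -0.02 to 0.18), at -0.21 as a mean over cells, and at -0.02 without Ccl21a-high members, a choice made after the values were seen. The G2/M sum was at 0.08 with at least 8 UMIs, and at 0.14 without thymocyte-rich members, 0.19 without the deepest cells and 0.14 without Ccl21a-high members. The S-phase sum was at -0.13 with at least 2 UMIs, -0.14 with no upper gene limit and -0.08 as a mean over cells, and the p53 sum at 0.13 without the deepest cells. The cause of these changes was not tested.

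Counts of genes moved with the minimum of UMIs by construction. Higher in irradiated members were 176 genes at 50 UMIs, 38 at 200 and 2159 with none, and lower were 114, 23 and 2550. Against replicating cells, 762 were higher with no minimum, and lower were 100, 37 and 735. Against Aire-high cells, 1129 were lower at 200 and 7300 with no minimum. Without the deepest cells 55 were higher and 77 lower in irradiated members, and 126 were higher and 9 lower than in replicating cells. Without Ccl21a-high members 153 were lower than in replicating cells. The count higher than in Aire-high cells stayed within 1.5 times under all 12 alternatives.

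Each condition is a pool of 3 mice in 1 library, so spread between animals is unknown and a library effect cannot be told apart from irradiation.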

Other observations

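Of 3042 genes ranked, the ratio of variance over mean across members had a median of 1.24 in the control and 1.22 in the irradiated library. Spp1, the secreted osteopontin, was at 94.2 and 136, Wfdc18 at 71.7 and 65.9, Reg3g at 48.4 and 47.6 and Fabp4, a fatty acid carrier, at 47.6 and 51.2. Calca, the calcitonin peptide gene, was at 35 and 70.3, Fabp5, a fatty acid carrier of epidermis, at 32.5 and 36.1, S100a8 at 22.4 and 29.2 and Krt17, a keratin of stressed epithelium, at 27.4 and 22.2. The same rank included Trbc2, a thymocyte transcript with UMIs in 35 control and 79 irradiated members, at 50 and 58.9, and Gm42418 at 110 and 142, a locus that overlaps ribosomal RNA sequence. Malat1, Ccl21a, Tmsb4x, Apoe and Cxcl10 completed the 15 highest ratios, and no gene of the S-phase or G2/M lists was among them.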
